A study of Mus musculus with 12 samples.

Results

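Notch signalling is described here through 9 genes in the postnatal mouse testis: the receptors Notch1, Notch2, Notch3 and Notch4, the ligands Jag1 and Jag2, and the target genes Hes1, Hey1 and Heyl. They were found by symbol among the 37675 genes listed, and all 9 passed the filter on low counts that left 16860 genes for testing. The 9 genes were chosen with results of these same counts known, among them the fall of Notch1 between postnatal day (PND) 21 and PND 28, so for these genes that comparison is given as a description with no p-value, and the p-values of the others are not independent of the choice. Whole testes of C57BL/6NHsd mice, for which no treatment is named, were sequenced at PND 7, PND 14, PND 17, PND 21 and PND 28, with 2 mice at each age. Each PND 7 mouse was sequenced under 2 barcodes, which were combined, so 12 libraries gave 10 mice. The ages follow the first wave of spermatogenesis, in which spermatocytes, round spermatids and elongating spermatids appear in turn.

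Notch proteins are single-pass receptors that are activated by Jagged or Delta ligands on a neighbouring cell. Ligand binding lets ADAM proteases and then gamma-secretase cut the receptor, and the freed intracellular part enters the nucleus, where it joins the DNA-binding protein RBPJ and a Mastermind co-activator to switch on repressors of the Hes and Hey families. In the testis, Notch receptors of Sertoli cells are known to respond to Jagged ligands on germ cells, and Notch activity in Sertoli cells lowers Gdnf, a growth factor for spermatogonial stem cells, and Cyp26b1, an enzyme that degrades retinoic acid. Notch4 is best known from blood vessel endothelium, and Notch3 and Heyl from vascular smooth muscle.

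All 9 genes are protein coding. Positions are those of mm9, the build of the counts. Notch1 (ENSMUSG00000026923) lies on chromosome 2 at 26313423 to 26372183, Notch2 (ENSMUSG00000027878) on chromosome 3 at 97817461 to 97954290, Notch3 (ENSMUSG00000038146) on chromosome 17 at 32257765 to 32303825 and Notch4 (ENSMUSG00000015468) on chromosome 17 at 34701213 to 34725448. Jag1 (ENSMUSG00000027276) lies on chromosome 2 at 136907192 to 136942380 and Jag2 (ENSMUSG00000002799) on chromosome 12 at 114146801 to 114167706. Hes1 (ENSMUSG00000022528) lies on chromosome 16 at 30064470 to 30067882, Hey1 (ENSMUSG00000040289) on chromosome 3 at 8663362 to 8667039 and Heyl (ENSMUSG00000032744) on chromosome 4 at 122910799 to 122927118. The study's methods do not say whether strand was used in counting, and Notch1, Notch3 and Notch4 overlap annotated RNAs of the other strand. The partners of Notch1, 0610009E02Rik and Gm13568, held 157 and 26 counts over all mice beside 2742 for Notch1, that of Notch3, Gm17276, held 9 beside 507, and that of Notch4, Gm20462, held 11 beside 281.

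Promoters, as 250 bases before to 50 bases after the start, were taken from RefSeq on GRCm38.p6, which is a later build than that of the counts. The table held 6 of the 9 genes: Notch1, Notch2, Notch3, Notch4, Jag1 and Jag2. Both strands were searched for 3 motifs, none of which contains another: TGGGAA, the core of the RBPJ site, CACGTG, an E-box bound by Hey proteins, and CACGCG, the class C site bound by Hes and Hey proteins. TGGGAA was present in 25.6% of the 32851 promoters of that length and in none of the 6, and CACGTG in 7.15% and in none of the 6. CACGCG was present in 9.27% of all promoters and in 3 of the 6, those of Jag1, Notch2 and Jag2. The share of G and C was 55.7% for Jag1, 73.0% for Notch2 and 86.0% for Jag2 beside a median of 52.7% over all promoters. In the promoters without a match it was 68.3% for Notch1, 70.0% for Notch3 and 58.3% for Notch4, so this share did not set the promoters with a match apart. The stretches around the matches before the start are shown because Jag1 was the gene called earliest and Notch2 the gene with the most reads below. They are written 5′ to 3′ on the strand of the gene, with the match in capitals (as its reverse complement in the upstream Jag1 stretch), and the single match of Jag2 lies after its start.
Jag1, chr2:137116740-137116770, minus strand: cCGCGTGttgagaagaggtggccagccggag
Jag1, chr2:137116662-137116715, minus strand: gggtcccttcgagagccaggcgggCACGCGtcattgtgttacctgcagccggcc
Notch2, chr3:98013472-98013525, plus strand: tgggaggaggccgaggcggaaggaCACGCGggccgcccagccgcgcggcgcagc
A match is a run of letters and was not measured as a binding site in these mice.

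The count of reads on genes was between 3994026 and 13559548 per mouse. PND 7 mouse 2 had the fewest genes with a count, 16616, beside 19521 in PND 7 mouse 1. PND 17 mouse 2, with the fewest reads, had 18986. What this difference did to the changes below was not tested. Levels are given as CPM, counts rescaled to a common library size by the trimmed mean of M-values (TMM), and 3 counts were worth 0.209 to 0.726 CPM. Mitochondrial genes held 36.7% to 37.3% of counts at PND 7 and 15.1% to 15.6% at PND 28, and the part of this share in the changes below was not tested. The summed level of 8 spermatocyte markers was lowest at PND 7 (309 to 361 CPM) and highest at PND 28 (2980 to 3230 CPM), and 4 of 8 spermatid markers (Tnp2, Prm1, Prm2 and Acrv1) had no count at PND 7. Between these ages the spermatid markers did not follow the order of age: they summed to 195 CPM in PND 14 mouse 1, to 15.1 CPM in PND 14 mouse 2, to 14.2 and 15.7 CPM at PND 17, and to 137 and 125 CPM at PND 21. The mice of PND 14 thus stood apart from each other, also in spermatocyte markers, with 1580 CPM in mouse 1 and 2440 CPM in mouse 2. A gene was called where edgeR's quasi-likelihood test gave a Benjamini-Hochberg adjusted p under 0.05 over all genes tested and the change was at least 2-fold.

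Over the whole span from PND 7 to PND 28, 6 of the 9 genes were called and all 6 were lower: Notch1, Notch2, Notch3, Jag1, Hes1 and Heyl. Of all genes tested, 55.6% were called in this comparison and 23.4% were called lower. The median log2 fold change was -1.72 over the 9 genes and 0.103 over all genes tested. Jag2 was lower by less than 2-fold, and Notch4 and Hey1 had higher values at PND 28 without passing the test. Jag1 was the only one of the 9 called between PND 7 and PND 14. In whole testis, fewer cells of a type, less RNA per cell and more RNA from other cells cannot be told apart.

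**Figure D1:**
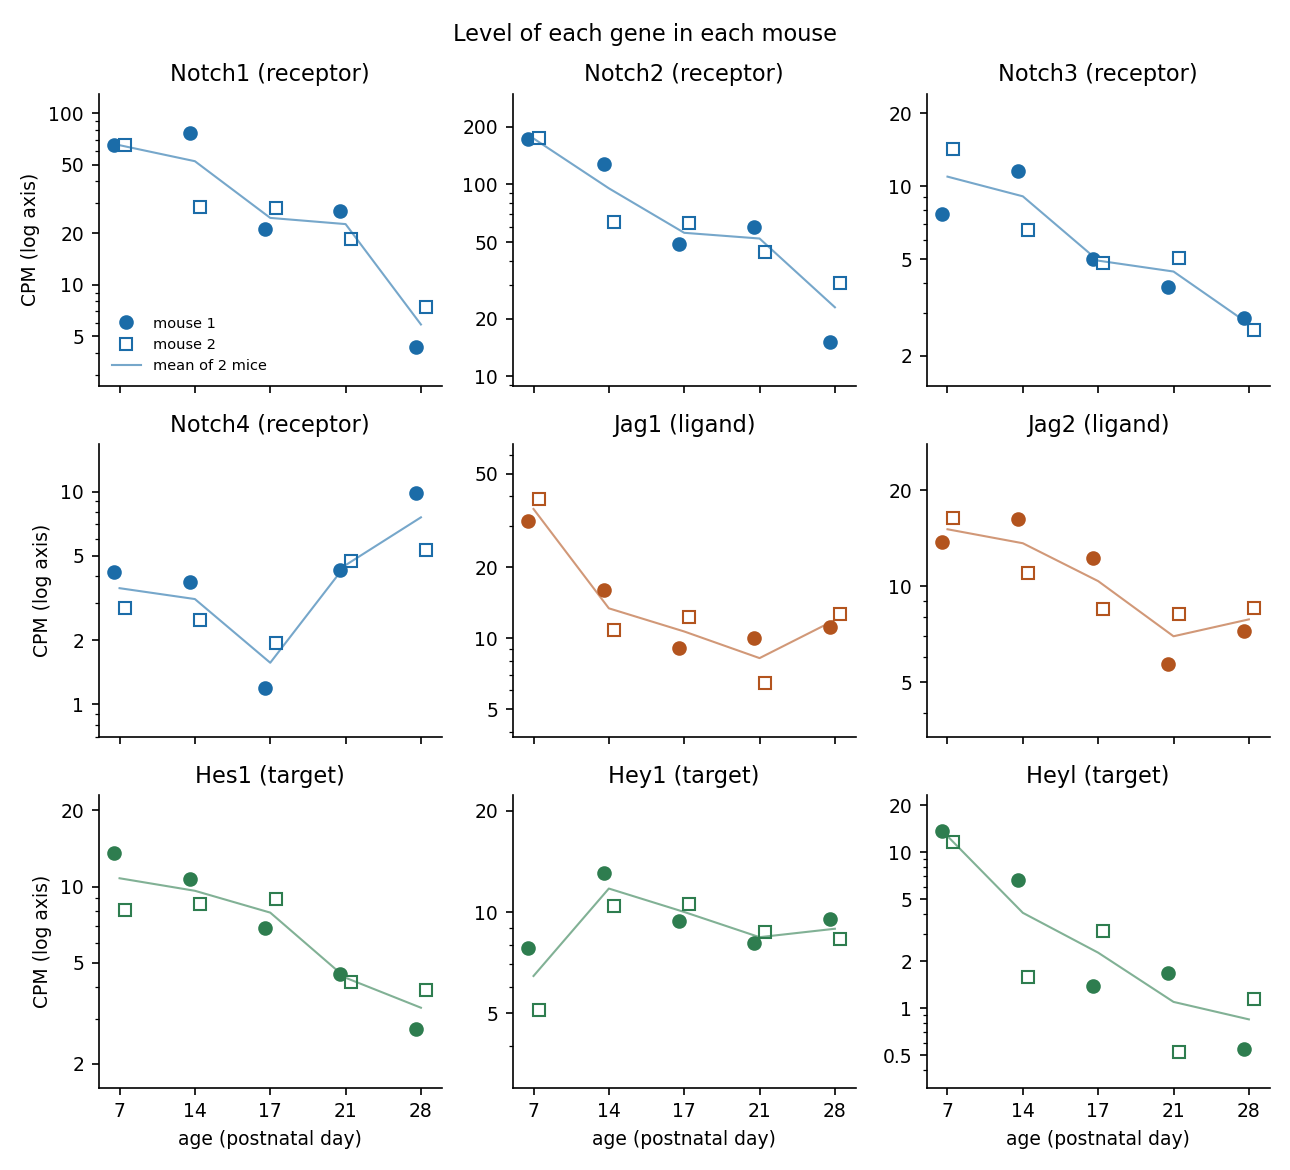
Level of each gene in CPM (log axis, a separate range in each panel) against age in postnatal days, with filled circles for mouse 1, open squares for mouse 2 and a line through the mean of the 2 mice. Notch1, Notch2, Notch3, Hes1 and Heyl have their lowest means at PND 28, Jag1 drops by PND 14, and Notch4 has its lowest values at PND 17 and its highest at PND 28.

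Notch1 is the receptor whose active form has been studied most in Sertoli cells. Its level was 65.1 and 64.8 CPM at PND 7, 76.4 and 28.4 CPM at PND 14, 21.2 and 27.8 CPM at PND 17, 26.7 and 18.4 CPM at PND 21, and 4.36 and 7.38 CPM at PND 28. The PND 7 mice were alike, PND 14 mouse 1 lay above both of them, PND 14 mouse 2 lay near the mice of PND 17 and PND 21, and both PND 28 mice lay below all others. Between PND 7 and PND 28 Notch1 fell 11.3-fold (log2 fold change -3.50 ± 0.48, SE, edgeR adjusted p = 0.000104, n = 2 mice per age). Between PND 21 and PND 28 its level went from a mean of 22.5 CPM to 5.87 CPM, which is 3.91-fold lower. That change was used in choosing the genes and is given with no test. With each mouse left out the log2 fold change of Notch1 for this step lay between -2.36 and -1.61. Over all 18 alternative fits, these included, it lay between -2.36 and -0.93, so it was under 2-fold at the upper end. Of the 59 listed exons of Notch1, 6 to 9 had more than 10 reads in the 4 PND 7 libraries, 26 and 6 in the PND 14 mice, 9 and 2 at PND 17, 3 and 2 at PND 21, and 0 in both PND 28 mice. This number grows with the depth of a library as well as with the level of the gene.

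Notch2, also a receptor, was the most abundant of the 9 genes in reads. It had 172 and 175 CPM at PND 7, 127 and 63.8 CPM at PND 14, 49.0 and 62.9 CPM at PND 17, 59.9 and 44.6 CPM at PND 21, and 15.1 and 30.7 CPM at PND 28. Both mice of PND 14 were below both of PND 7, both of PND 17 were below both of PND 14, the mice of PND 17 and PND 21 overlapped, and those of PND 28 were lowest. Between PND 7 and PND 28 Notch2 fell 7.67-fold (-2.94 ± 0.40, edgeR adjusted p = 9.79e-05). The log2 fold change of Notch2 was -0.86 from PND 7 to PND 14 (edgeR adjusted p = 0.113), which was not called, and -1.20 from PND 21 to PND 28, which is given with no test.

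Notch3 was present at a lower level, with 7.71 and 14.2 CPM at PND 7, 11.6 and 6.57 CPM at PND 14, 5.02 and 4.84 CPM at PND 17, 3.82 and 5.07 CPM at PND 21, and 2.86 and 2.54 CPM at PND 28. The mice of PND 7 and PND 14 overlapped and those of PND 28 were lowest. Between PND 7 and PND 28 Notch3 fell 4.01-fold (-2.00 ± 0.48, edgeR adjusted p = 0.00408), and no step between neighbouring ages up to PND 21 was called.

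Notch4 had another course. It was at 4.20 and 2.82 CPM at PND 7, 3.74 and 2.50 CPM at PND 14, 1.19 and 1.94 CPM at PND 17, 4.29 and 4.72 CPM at PND 21, and 9.81 and 5.31 CPM at PND 28. In CPM both mice of PND 17 were below all others, and both of PND 28 were above all others, but the values rest on 8 to 72 counts per mouse. The log2 fold change of Notch4 was 1.60 ± 0.58 from PND 17 to PND 21 (edgeR adjusted p = 0.0958) and 1.11 ± 0.52 from PND 7 to PND 28 (edgeR adjusted p = 0.0824), so neither passed the test, and the second was called, at 1.28, with the scaling of relative log expression.

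Per length of exon, Notch2 made up most of the receptor RNA at the early ages. RPKM, which divide the reads of a gene by the length of its exons and by the reads of the library, allow such a comparison between genes. The share of Notch2 in the summed RPKM of the 4 receptors was 73.1% and 71.6% at PND 7 and between 62.4% and 68.1% in the 6 mice of PND 14, PND 17 and PND 21. At PND 28 it was 43.2% and 66.3%. Notch1 had 19.1% to 27.8% of the sum up to PND 21 and 9.29% and 11.7% at PND 28. The share of Notch4 was 2.27% and 1.51% at PND 7 and 36.8% and 14.9% at PND 28, while the sum itself went from 23.6 and 25.2 RPKM to 2.80 and 3.77 RPKM. Both mice of PND 28 thus had a lower Notch1 share and a higher Notch4 share than every earlier mouse, and the 2 mice differed widely in the share of Notch4. The RPKM of Notch4 itself was 1.03 and 0.56 at PND 28, and 0.56 was also its value in PND 21 mouse 1. On this scale the PND 28 mice were thus not both above all others.

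**Figure D2:**
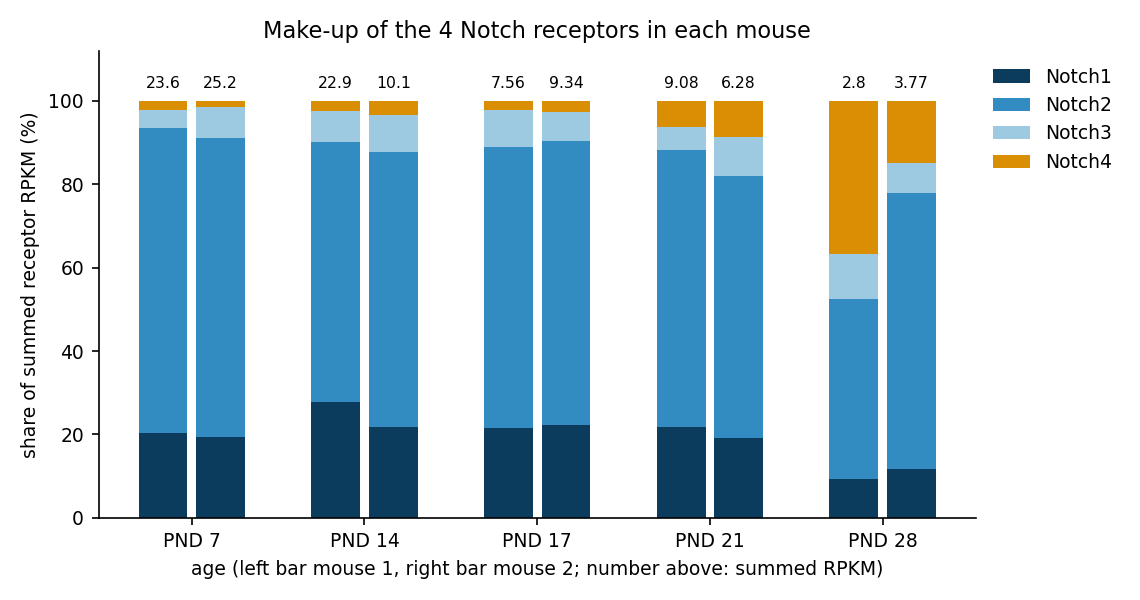
Share of each Notch receptor in the summed RPKM of the 4 receptors (percent, bars from 0), with 1 bar per mouse, mouse 1 on the left at each age, and the summed RPKM above each bar. Notch2 holds the largest part of every bar, and the Notch4 part is largest in the PND 28 bars, at 36.8% and 14.9%.

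Jag1 was the ligand with the earliest change. It was at 31.6 and 39.2 CPM at PND 7, 16.0 and 10.8 CPM at PND 14, 9.07 and 12.3 CPM at PND 17, 10.0 and 6.47 CPM at PND 21, and 11.2 and 12.7 CPM at PND 28. Both mice of PND 7 were above all later mice, and the mice of PND 14, PND 17 and PND 21 overlapped from age to age. Between PND 7 and PND 14 Jag1 fell 2.64-fold (-1.40 ± 0.33, edgeR adjusted p = 0.0135). It was the only gene of the 9 called there, where 18.9% of all genes were called and 5.43% were called lower. With PND 7 mouse 2 left out the change of Jag1 was -1.23, with PND 14 mouse 2 left out it was -1.16, and in neither fit was Jag1 called. Between PND 7 and PND 28 it fell 2.97-fold (-1.57 ± 0.34, edgeR adjusted p = 0.00212), so the mice of PND 28 were at about the level of PND 14.

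Jag2, the other Jagged ligand, was at 13.8 and 16.4 CPM at PND 7, 16.3 and 11.0 CPM at PND 14, 12.3 and 8.47 CPM at PND 17, 5.73 and 8.22 CPM at PND 21, and 7.22 and 8.54 CPM at PND 28. The mice of PND 7 and PND 14 overlapped, and both mice of PND 21 were below both of PND 17. From PND 7 to PND 28 its log2 fold change was -0.94 ± 0.37 (edgeR adjusted p = 0.0430), a 1.92-fold difference that did not reach the 2-fold limit. Jag2 passed the limit without PND 7 mouse 1 (-1.05) and with library totals as the scaling (-1.27).

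Hes1 encodes a repressor and is the target gene most widely used to read Notch activity. It was at 13.5 and 8.06 CPM at PND 7, 10.7 and 8.54 CPM at PND 14, 6.83 and 8.95 CPM at PND 17, 4.53 and 4.20 CPM at PND 21, and 2.73 and 3.92 CPM at PND 28. The mice of the first 3 ages overlapped from age to age, and those of PND 21 and of PND 28 were below all of them. From PND 7 to PND 28 Hes1 fell 3.30-fold (-1.72 ± 0.43, edgeR adjusted p = 0.00504), and without PND 28 mouse 1 the change was -1.45 and was not called.

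Heyl, a repressor of the Hey family, fell most of the 9 genes from PND 7 to PND 28. It was at 13.7 and 11.7 CPM at PND 7, 6.60 and 1.58 CPM at PND 14, 1.39 and 3.15 CPM at PND 17, 1.67 and 0.52 CPM at PND 21, and 0.55 and 1.15 CPM at PND 28. The PND 7 mice were above all others, and the later mice rest on few reads, with 60 and 12 counts at PND 14 and 4 and 5 counts at PND 28. Heyl fell 15.6-fold from PND 7 to PND 28 (-3.96 ± 0.84, edgeR adjusted p = 0.00187). The log2 fold change from PND 7 to PND 14 was -1.62 ± 0.69 and was not called (edgeR adjusted p = 0.112).

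Hey1, of the same family, did not follow Hes1 and Heyl. It was at 7.81 and 5.11 CPM at PND 7, 13.1 and 10.4 CPM at PND 14, 9.42 and 10.6 CPM at PND 17, 8.11 and 8.74 CPM at PND 21, and 9.54 and 8.31 CPM at PND 28. In CPM both mice of PND 7 were below all later mice. In RPKM this did not hold: PND 7 mouse 1 (3.71) lay above PND 21 mouse 2 (3.69) and both PND 28 mice (3.65 and 3.23). The log2 fold change was 0.85 ± 0.35 from PND 7 to PND 14 (edgeR adjusted p = 0.102, 95% confidence interval 0.08 to 1.63) and 0.46 ± 0.36 from PND 7 to PND 28 (edgeR adjusted p = 0.277, 95% confidence interval -0.32 to 1.25). The first was called, at 1.23, without PND 7 mouse 1. Whether the course of Hey1 differed from those of Hes1 and Heyl was not tested.

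**Figure D3:**
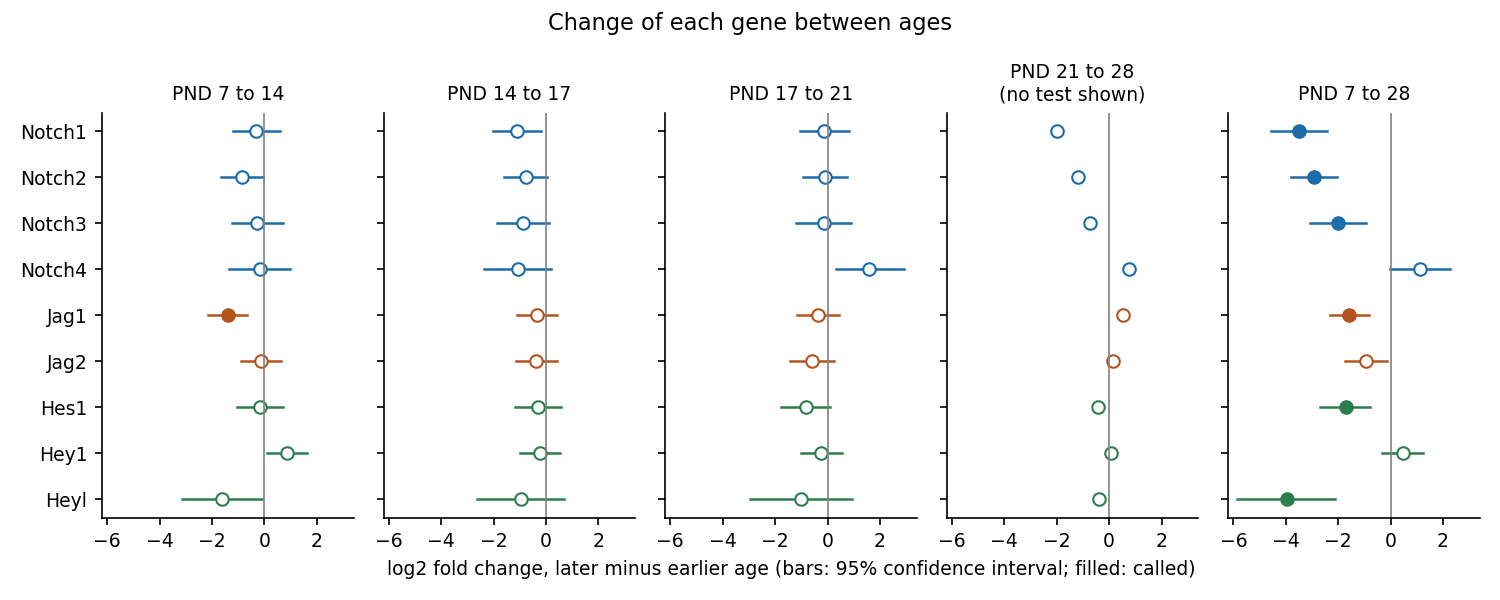
Log2 fold change of each gene (later minus earlier age) in the 5 comparisons, with receptors in blue, ligands in brown and targets in green, bars for the 95% confidence interval and filled points for genes called. Neither intervals nor calls are drawn for PND 21 to 28, which was known when the genes were chosen. The filled points are Jag1 in PND 7 to 14, and Notch1, Notch2, Notch3, Jag1, Hes1 and Heyl in PND 7 to 28.

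Few steps between neighbouring ages were called, though several were at least 2-fold in size, such as Heyl from PND 7 to PND 14 (-1.62) and Notch4 from PND 17 to PND 21 (1.60). From PND 7 to PND 14, 4 of the 9 had an unadjusted edgeR p under 0.05, beside 6253 of 16860 genes tested. Between PND 14 and PND 17 all 9 had negative log2 fold changes, with a median of -0.775 beside -0.00315 over all genes, and none was called. Without PND 14 mouse 1 the change of Notch1 was -0.23, that of Notch2 -0.20 and that of Heyl 0.42, and those of the other 6 lay between -0.75 and -0.03. In that comparison edgeR called 0.0% of the genes tested, 769 of 16860 had an unadjusted p under 0.05, Notch1 (-1.11) being the only gene of the 9 among them, and DESeq2 called 1 gene. Between PND 17 and PND 21 none of the 9 genes was called where 10.3% of all genes were, and their median was -0.242. In that comparison 1 of the 9, Notch4, had an unadjusted edgeR p under 0.05, beside 4758 of 16860 genes tested. Between PND 21 and PND 28, where 7.66% of all genes were called, the 1 gene of the 9 past the same criteria was Notch1, whose fall was known when the genes were chosen, so nothing is read from that count.

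The size of the early fall differed with the PND 14 mouse left out. Mouse 1 had 2.69 times the Notch1 level of mouse 2, 1.99 times the Notch2 level and 4.19 times the Heyl level. Without PND 14 mouse 1, 4 of the 9 genes were called lower between PND 7 and PND 14: Notch1 (-1.22), Notch2 (-1.48), Jag1 (-1.75) and Heyl (-3.03). In that fit 16.3% of all genes were called and 4.7% were called lower. Without PND 14 mouse 2 none of the 9 was, and Notch1 was called between PND 14 and PND 17 (-1.67), where 0.973% of all genes were called. For PND 7 to PND 14 without mouse 2 the share of all genes called is not given, so the counts called without either mouse are not compared. By size, Notch1 changed by 0.22 and Jag1 by -1.16 in that fit, beside -1.22 and -1.75 without PND 14 mouse 1. Sertoli cell markers summed to 2450 CPM in PND 14 mouse 1 and 1690 CPM in mouse 2, and endothelial markers to 71.6 and 86.2 CPM. The part of such differences between these mice in the result was not tested.

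Compared per length, the order of the genes changed with age. At PND 7 the mean RPKM was highest for Notch2 (17.6), which did not overlap with the next gene, and then followed Jag1 (6.47), Hes1 (5.58) and Notch1 (4.84), each overlapping with its neighbour over the 2 mice. Jag2 (3.92), Hey1 (3.09) and Heyl (2.67) came next and overlapped with their neighbours in turn, and Notch3 (1.45) and Notch4 (0.458) were lowest, each apart from its neighbour. At PND 14 and PND 17 Notch2 and Hey1 led, at 10.5 and 6.11 RPKM and at 5.72 and 4.90 RPKM, and overlapped. At PND 21 Notch2 (4.99) and Hey1 (3.79) led and did not overlap. At PND 28 Hey1 (3.44 RPKM) was highest and apart from Notch2 (1.85), which overlapped with Jag1 (1.74), as did Jag1 with Jag2 (1.65) and Jag2 with Hes1 (1.39). Notch4 (0.795) stood alone, Notch1 (0.350) and Notch3 (0.285) overlapped, and Heyl (0.140) was lowest.

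The other genes of the pathway, 63 in 9 lists by role, moved in both directions over the whole span. Of 57 that passed the filter, 33 were called between PND 7 and PND 28, 28 lower and 5 higher, with a median log2 fold change of -1.10. In all genes tested, 23.4% were called lower and 32.2% higher. Of the other ligands and related proteins, 3 of 5 were lower (Dlk1, Dll1 and Dner) and 1 was higher (Dll3). Dlk1, a non-canonical ligand of fetal Leydig and other immature cells, fell from a mean of 90.2 to 1.59 CPM (-6.01 ± 0.80, edgeR adjusted p = 8.51e-05), and Dll3, a Delta protein that acts inside the cell, rose from 2.01 to 21.9 CPM (3.47 ± 0.48, edgeR adjusted p = 0.000101). Of 4 genes for ubiquitination of ligands, Neurl1b fell (-3.26 ± 0.49, edgeR adjusted p = 0.000204) and Neurl1a rose.

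Of 5 genes that modify the sugars of the receptors, 4 were lower (Lfng, Pofut1, Poglut1 and Rfng), Lfng, a Fringe enzyme, with a change of -3.44 ± 0.74 (edgeR adjusted p = 0.00195). Of 8 genes for cleavage of the receptors, 3 were lower (Furin, Adam10 and Aph1a) and Aph1c was higher, Aph1a and Aph1c both being genes for subunits of gamma-secretase. Of 10 genes for inhibition and turnover of receptors 4 were lower (Numbl, Dtx1, Dtx4 and Nrarp). In the nuclear complex 6 of 9 were lower, RBPJ's own gene Rbpj, all 3 Mastermind genes Maml1, Maml2 and Maml3, and the acetyltransferase genes Ep300 and Crebbp, while Snw1 was higher. Of 12 corepressor genes 4 were lower (Tle2, Tle4, Ctbp1 and Ncor1) and Hdac1 was higher. Tle2, a Groucho family corepressor, had a change of -4.39 ± 0.51 (edgeR adjusted p = 3.31e-05). Of 6 other Hes and Hey genes only Hes6 and Hey2 passed the filter, and Hes6 was lower. Both genes that Notch activity is known to lower in Sertoli cells were lower at PND 28, Gdnf (-3.36 ± 0.89, edgeR adjusted p = 0.00655) and Cyp26b1. Gdnf had 93 and 123 counts at PND 7 and 16 and 0 counts at PND 28, so its PND 28 mice differed widely.

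**Figure D4:**
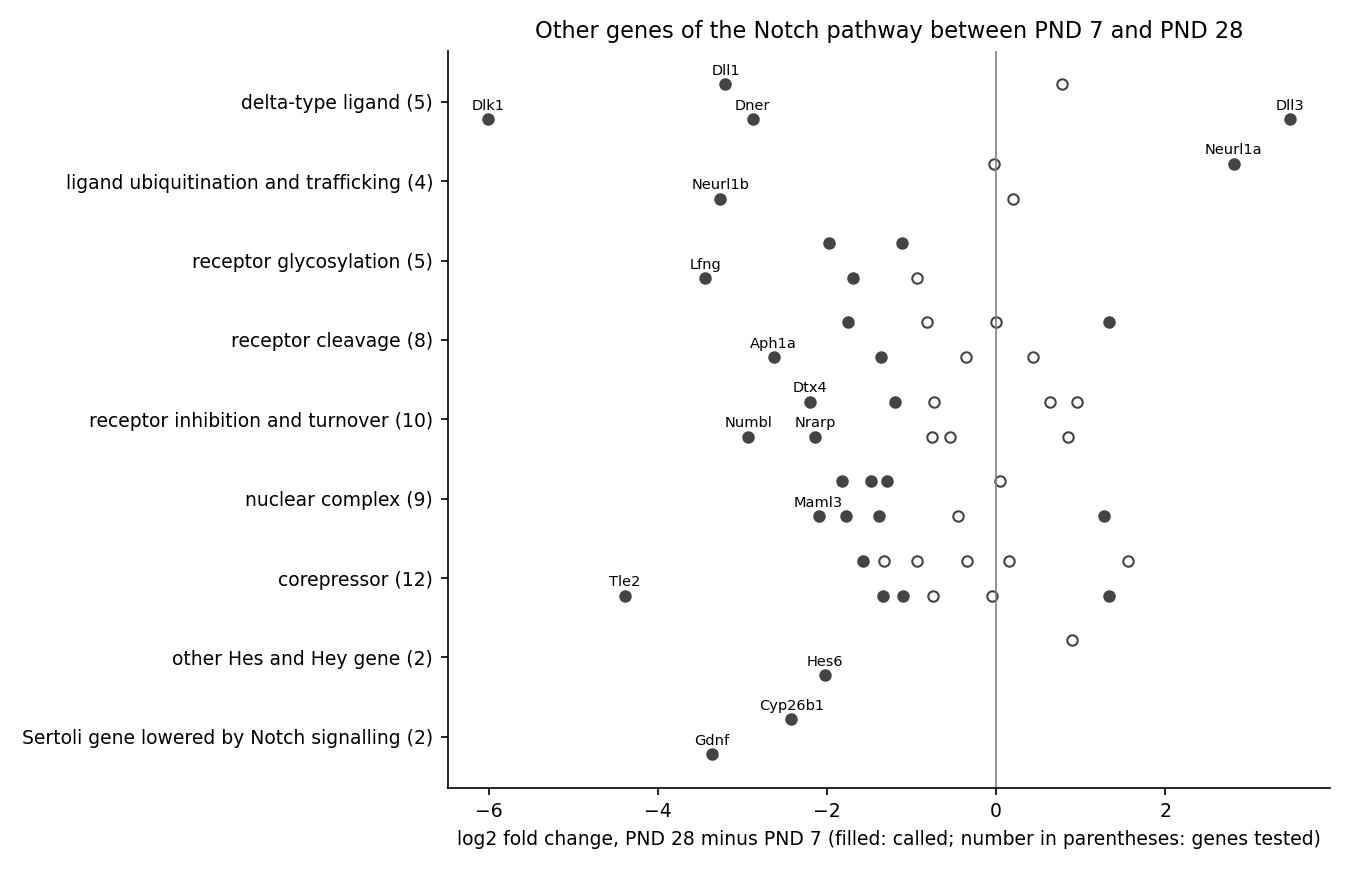
Log2 fold change from PND 7 to PND 28 of the 57 other pathway genes that passed the filter, grouped by role with the number tested in parentheses. Filled points are genes called, and those with an absolute log2 fold change of at least 2 are named. Filled points lie on both sides of 0, 28 below and 5 above, from Dlk1 at -6.01 to Dll3 at 3.47.

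Fewer pathway genes were called between neighbouring ages. Between PND 7 and PND 14, 5 were called and all were lower: Dlk1 (-3.18), Neurl1b (-2.08), Tle2 (-2.05), Numbl (-1.40) and Ctbp2 (-1.32). Of all genes 18.9% were called there and 5.43% were called lower. The count was 13 without PND 7 mouse 1 (24.7% of all genes called), 9 without PND 21 mouse 1 (16.7%), 8 without PND 14 mouse 1 (16.3%) and 8 without PND 21 mouse 2 (16.7%). By edgeR, 0 of the 57 were called between PND 14 and PND 17, and DESeq2 called 0. There 4 of the 57 had an unadjusted edgeR p under 0.05, beside 769 of 16860 genes tested. Between PND 17 and PND 21, where 10.3% of all genes were called, edgeR called 0 of the 57 and DESeq2 called 1. There 6 of the 57 had an unadjusted edgeR p under 0.05, beside 4758 of 16860 genes tested. The PND 14 to 17 count was 1 without PND 14 mouse 2, and the PND 17 to 21 count was 1 without PND 7 mouse 2 or without PND 21 mouse 2. Between PND 21 and PND 28 Neurl1a (4.05) and Tle3 (1.39) were higher and Dtx4 (-1.06) was lower, where 7.37% of all genes were called higher and 0.297% lower. Neurl1a had 2 and 1 counts at PND 21 and 32 and 28 counts at PND 28, so its change was poorly bounded (95% confidence interval of the log2 fold change 1.66 to 6.58). None of these 3 was called without PND 21 mouse 1, PND 21 mouse 2, PND 28 mouse 1 or PND 28 mouse 2.

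Markers of somatic cells and of spermatogonia also moved with age. Which of these cells held Notch RNA was not measured. Of 9 Sertoli cell markers, 7 were called lower between PND 7 and PND 28, with a median log2 fold change of -1.84, and their summed level went from 2420 to 2850 CPM at PND 7 to 829 to 950 CPM at PND 28. Of 7 endothelial markers 3 were called lower and 1 higher, with a median of -1.22 and sums of 102 to 127 CPM and 42.0 to 54.7 CPM. Of 6 peritubular myoid markers 3 were lower and 1 higher, with sums of 419 to 532 CPM and 230 to 276 CPM. Of 8 spermatogonium markers 6 were lower and 1 higher, with sums of 484 to 551 CPM and 184 to 226 CPM. In contrast, 3 of 7 Leydig cell markers were higher, with sums of 327 to 348 CPM and 901 to 1160 CPM, and macrophage markers, of which 1 of 6 was higher, summed to 82.9 to 96.9 CPM and 93.4 to 116 CPM. Notch1 (-3.50), Notch2 (-2.94), Notch3 (-2.00) and Heyl (-3.96) lay below that Sertoli cell median and Hes1 (-1.72) and Jag1 (-1.57) above it, and these differences were not tested. The Sertoli cell markers themselves ran from -3.78 for Amh to -0.26 for Cst9 over that span, a range that held all of these genes but Heyl. Between PND 21 and PND 28 all 9 Sertoli cell markers had negative log2 fold changes, from -1.70 for Amh and -1.32 for Sox9 to -0.25 for Cst9, with a median of -0.47, and their sums were 1230 to 1450 CPM and 829 to 950 CPM. The part of the cell make-up in the changes of the 9 genes was not tested.

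**Figure D5:**
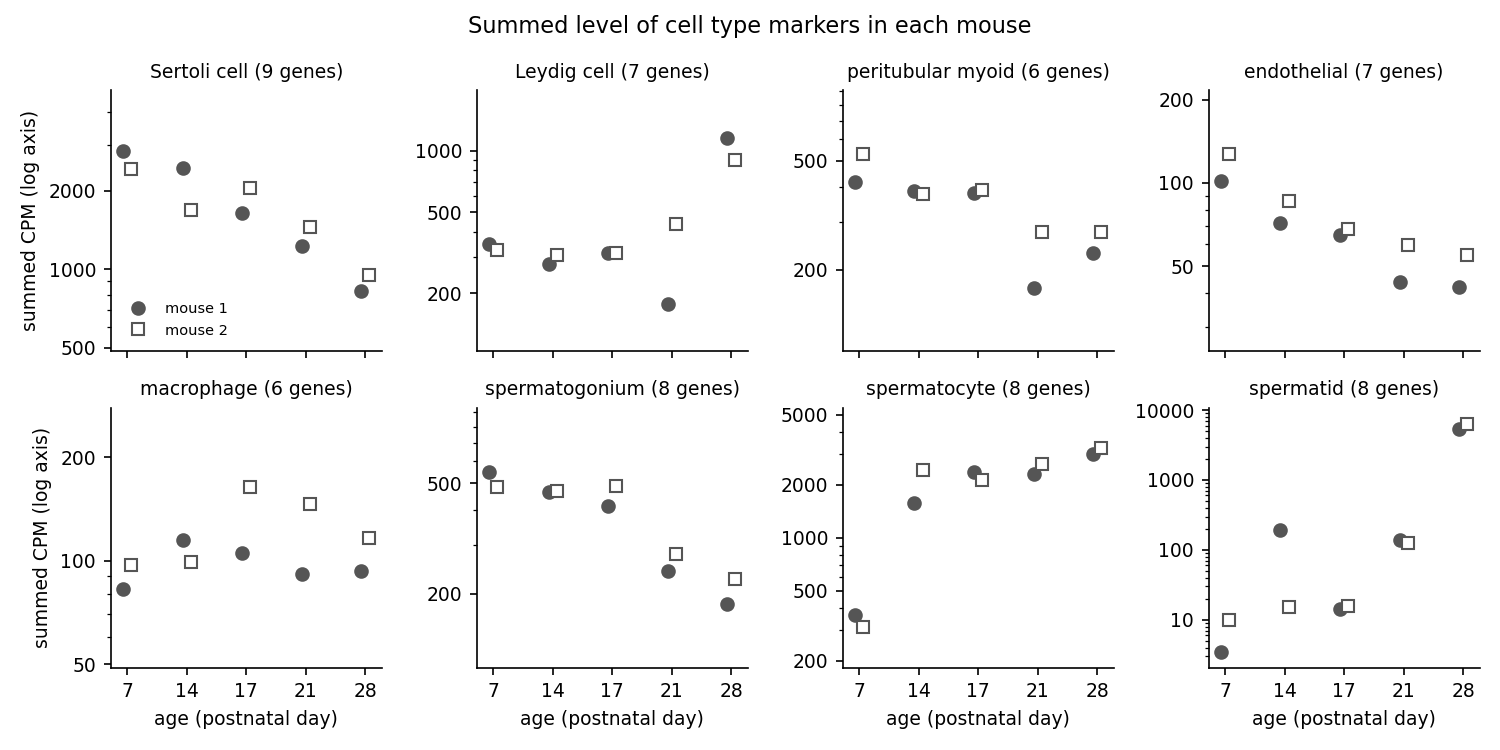
Summed level in CPM (log axis, a separate range in each panel) of the markers of 8 cell types against age in postnatal days, with filled circles for mouse 1 and open squares for mouse 2. Sertoli cell, endothelial, myoid and spermatogonium sums are lower at PND 28 than at PND 7, spermatocyte and spermatid sums are higher, and PND 14 mouse 1 lies above mouse 2 for spermatid markers (195 and 15.1 CPM).

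The genes whose levels over the 10 mice were most like those of each of the 9 were found by Pearson's r of log2(CPM + 0.5) among 9887 protein-coding genes whose mean reached 10 CPM. All 10 points share the course of age and the make-up of the testis, so many genes reach high values. For Notch1 they were Srbd1, Polr1b and Ywhaz (r = 0.986 each), and for Notch2 Klf12 (0.992), Ltbp4 and Prrc2b (0.991 each). For Notch3 they were Tm9sf1 (0.992), Nbeal2 (0.972) and Trp53 (0.963), and for Notch4, with the lowest values, Ppp1r10 (0.918), Fam162a (0.907) and Stambpl1 (0.901). Stam (0.988), Rbm18 (0.981) and Smc3 (0.967) were most like Jag1, and Nt5dc2 (0.952), the receptor-modifying Pofut1 (0.937) and Sh3bp5l (0.936) most like Jag2. Rcbtb1 (0.991), Zfp790 (0.985) and the spermatogonium marker Uchl1 (0.980) were most like Hes1, Chpf (0.960), Cotl1 (0.946) and Gfm2 (0.937) most like Hey1, and Ptprf (0.982), Zfp462 (0.981) and Tnrc6b (0.979) most like Heyl. Of these 27 places, 12 were held by the same genes on the scale of log2(RPKM + 1). Among the 9 genes themselves, Notch1 and Notch2 had r = 0.974 and Notch1 and Notch4 had r = -0.487.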

How the data were processed

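Ribosomal RNA-depleted RNA of whole testes was read at 50 bp on the SOLiD 4. The authors aligned reads to mm9 with LifeScope, dropped those that aligned in over 10 places, and deposited per Ensembl gene the exon count of uniquely aligned reads, the number of exons with more than 10 reads, and an RPKM, the count corrected for exon length and library size. For each PND 7 mouse the counts of its 2 barcodes were summed and the RPKM averaged. Gene symbols came from GENCODE M1, which matched 37310 of 37675 genes, all at the same positions.

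The quasi-likelihood test of edgeR 4.0.16 (R 4.3.3), with TMM and filterByExpr, was fitted to all 10 mice by age alone and tested on simulated data. Standard errors are the absolute log2 fold change divided by the root of F. The spread of a gene within ages was estimated from all 10 mice together and drawn toward that of other genes. With 2 mice per age, p-values rest on this shared estimate and not on the 4 mice compared alone. PND 7 to 28 shares mice with PND 7 to 14 and PND 21 to 28. Alternatives were DESeq2 1.42.0, other scalings, no filter, only the 4 mice compared, the mouse number as a block, limma 3.58.1 on log2(RPKM + 1) with the study's criteria, and each mouse left out.

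The 9 genes and all lists were chosen with earlier results of these data known. All 9 genes are named. Of the pathway genes called, at most the 6 with the largest change and a mean of at least 1 CPM are given with values in each comparison. Figures were drawn with matplotlib 3.10.9. Rhox5, a Sertoli cell marker, was not matched, and Dlk2, Hes2, Hes3, Hes5, Hes7 and Psenen did not pass the filter. Some genes of the pathway are not reported here.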

Additional observations from a re-analysis of the deposited data

How the results depend on the processing

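The 6 genes called lower between PND 7 and PND 28 kept their direction under all 18 alternatives run for each, and the count of 6 stayed within 1.5 times with DESeq2, both other scalings, no filter, only the 4 mice, the block and each mouse left out. With the study's criteria, limma on log2(RPKM + 1) or log2(RPKM + 0.1) called 1 of the 9, since these criteria ask for 10 RPKM between the means and Notch2 alone of the 9 genes reached 10 RPKM in a mouse. Median log2 fold changes of all genes for PND 7 to 28 were 0.103 with TMM, -0.22 with library totals and 0.268 with relative log expression, and no change of the 9 genes over that span turned its direction under either. Between PND 21 and PND 28 Hey1 (0.09) and Jag2 (0.16) turned to -0.13 and -0.05 with library totals, and between PND 17 and PND 21 Notch2 (-0.10) turned to 0.01 with relative log expression.

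Counts for the 9 genes moved as follows. From PND 7 to PND 14 the count of 1 was 2 with no filter, 0 with limma at either pseudocount and 0 to 4 with each mouse left out. From PND 14 to PND 17 the count of 0 was 1 with no filter and 0 to 1 with each mouse left out. From PND 21 to PND 28, the comparison known when the genes were chosen, the count of 1 was 2 with no filter, 2 with only the 4 mice, 0 with limma in its 3 forms and 0 to 2 with each mouse left out. The log2 fold change of Notch1 from PND 7 to PND 14 ranged from -1.22 to 0.22 with each mouse left out, and was positive (0.22) without PND 14 mouse 2.

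Counts for the pathway genes from PND 7 to PND 14 (5) were 9 with DESeq2, 11 with no filter, 8 with only the 4 mice, 1 with limma at either pseudocount, 3 with limma and no minimum RPKM difference, and 4 to 13 with each mouse left out. From PND 14 to PND 17 (0) they were 2 with no filter, 1 with limma and no minimum difference, and 0 to 1 with each mouse left out. From PND 17 to PND 21 (0) they were 1 with DESeq2, 2 with no filter, and 0 to 1 with each mouse left out. From PND 21 to PND 28 (3) they were 5 with no filter, 6 with only the 4 mice, 0 with limma at either pseudocount, 1 with limma and no minimum difference, and 0 to 3 with each mouse left out. From PND 7 to PND 28 (33) they were 8 with limma at either pseudocount.

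Counts over all genes from PND 7 to PND 14 (3191) were 978 and 961 with limma at pseudocounts of 1 and 0.1, 2034 with only the 4 mice, and 2002 (without PND 7 mouse 2) to 4409 with each mouse left out. From PND 14 to PND 17 (0) they were 1 with DESeq2, 357 with no filter, 4 and 1 with limma, 60 with limma and no minimum difference, and 0 to 175 (without PND 14 mouse 2) with each mouse left out. From PND 17 to PND 21 (1743) they were 772 and 574 with limma, and 266 (without PND 17 mouse 2) to 2188 with each mouse left out. From PND 21 to PND 28 (1292) they were 1970 with no filter, 845 and 523 with limma, and 312 (without PND 21 mouse 2) to 1704 with each mouse left out. From PND 7 to PND 28 (9378) they were 3842 and 3814 with limma. For these changed counts the cause was not tested.

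With the mouse number as a replicate block, the counts for the 9 genes stayed at 1, 0, 0, 1 and 6, and those over all genes were 2947, 0, 1571, 1123 and 9228 in the 5 comparisons. Mice with the same number did not deviate together consistently across ages (correlations of mouse 1 deviations between ages -0.17 to 0.343, median -0.0134), so the numbers were not read as a pairing. Taken apart, the barcodes of the PND 7 mice gave like levels for Notch1 (4.74 to 5.01 RPKM) and Notch2 (17.2 to 18.4 RPKM). Genes with fewer reads differed more, such as Jag2 in mouse 1 (4.35 and 2.51 RPKM) and Hes1 in mouse 2 (3.33 and 4.9 RPKM). Depth limits Notch4 and Heyl most: Heyl had 3 to 7 counts per mouse at PND 21 and PND 28.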
